A study of Rattus norvegicus with 8 samples.

Results

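The interaction of TNFα and U0126 was measured in primary rat chondrocytes, as the difference between the response to TNFα in the presence of U0126 and the response to TNFα in its absence. It was taken on the log2 scale as U0126 and TNFα over U0126, minus TNFα over DMSO, within each of 2 independent experiments. Pairs of values below belong to experiments 1 and 2, in that order. A value of 0 means that the effect of both agents together equals the sum of their single effects over DMSO. A negative value means that the joint effect is less than that sum, and a positive value that it is more. All 8 of the 8 arrays enter the measure, and it was computed for 31042 of 31099 probe sets, after 57 control probe sets were left out.

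The cells were chondrocytes from the femoral condyles of Sprague Dawley rats of 1 day of age, grown as monolayers and kept without serum overnight. DMSO is the vehicle of the inhibitor, and the DMSO cultures received it for 30 minutes and then the vehicle of TNFα. The U0126 cultures received U0126 for 30 minutes and then the vehicle of TNFα. The TNFα cultures received DMSO for 30 minutes and then 30 ng/ml of human recombinant TNFα. The fourth group received U0126 for 30 minutes and then the same dose of TNFα. RNA was taken 24 hours after the second addition, and each treatment has 1 Affymetrix RAT230_2.0 array in each experiment, 2 in all. The study asked which part of the TNFα response passes through MEK/ERK signalling. As a model, the cultures are neonatal cells on plastic at a single time point, and the inactive analogue of U0126 is not among the arrays.

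TNFα is an inflammatory cytokine of arthritic joints. Its receptors activate the transcription factor NFκB and the mitogen-activated protein kinase cascades, of which 1 runs through the kinases MEK1/2 to ERK1/2. ERK in turn raises the amount and activity of transcription factors of the AP-1, ETS and EGR families. U0126 is a small molecule that blocks MEK1/2. If agents that act on a transcript independently of each other multiply its level, their effects add on the log2 scale. If their effects add as amounts, they add on the linear scale instead, and the interaction depends on that choice. In cartilage, TNFα is known to raise the enzymes that degrade the matrix and to lower the transcripts that build it.

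Deposited intensities ran from 15.2 to 34845 on a linear scale, with array medians of 364 to 378. Each array was centred on its median before log2 values were taken, and the intensities printed here are centred values on the linear scale. Of 9 chondrocyte markers, 8 have a probe set, and they include Col2a1 (type II collagen) and Acan (aggrecan, the main proteoglycan of cartilage). Below the array median on every array lay 0 of these 8, 0 of 6 fibroblast and perichondrium markers, 3 of 3 measured osteoblast markers, 3 of 4 muscle markers, 4 of 5 endothelial markers and 7 of 12 macrophage and leukocyte markers. Of the 3 measured red blood cell markers, 1 lay below the array median on every array. The summed intensity of the chondrocyte markers was 172673 and 113564 with DMSO and 133273 and 89215 with TNFα. That of the fibroblast and perichondrium markers was 91564 and 117166 with DMSO and 97981 and 119626 with TNFα, above the chondrocyte sum in experiment 2. The sum of the macrophage and leukocyte markers ranged from 3559 to 5311. In bulk cultures, fewer cells of a type and less RNA per cell cannot be told apart. Without detection calls, intensities near the bottom of this range cannot be set apart from background.

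The joint effect was less than the sum in 110 probe sets and more than the sum in 5, when a threshold of 1.45-fold was set on the interaction in the same direction in both experiments. That threshold is the one the study sets on its folds. The 110 are 0.354% of 31042 and the 5 are 0.0161%, and 0 passed it in opposite directions. These 110 have an interaction of -2.2 to -0.56, with a median of -0.82, and 65 of them lie further below the sum in experiment 1 and 45 in experiment 2. With the larger threshold of 2-fold in both experiments, 6 were below the sum and 0 above. The 6 were Ccl9, Ccl5, Mmp9, Col25a1 and 2 probe sets with no gene name of their own. Of the 110, 73 carry 1 gene symbol, for 72 genes, 1 carries several and 36 carry none. Of the 72 genes, 28 have 48 further probe sets that missed the threshold, of which 32 were below the sum in both experiments, 4 above it in both and 12 on different sides, with a median of -0.22.

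The same interaction was tested with limma, with a term for treatment and 1 for the experiment. It called 0 of 31042 probe sets (0.0%) at an adjusted p under 0.05, and the smallest adjusted p was 0.4997. At an unadjusted p under 0.05 it gave 1492 probe sets below the sum (4.81%) and 1344 above (4.33%). Of the 110 and the 5, 85 and 4 were among them. No single interaction passed the adjusted test, and the fold counts carry no p. Without the TNFα array of experiment 2, 2 probe sets passed the adjusted threshold. They were Ptges (prostaglandin E synthase) and Upp1 (uridine phosphorylase), with interactions of -1.67 and -1.76 and a limma adjusted p of 0.046 each, from a fit in which the lone TNFα array is assumed to vary like the others. The median standard error of the interaction was 0.108 over all probe sets and 0.216 in the 110, and the number of arrays limits this precision. This error pools all differences in treatment effects between the experiments. It is therefore also larger where the response to TNFα alone differs between them, and does not measure the spread of the 2 interaction values alone.

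**Figure D1:**
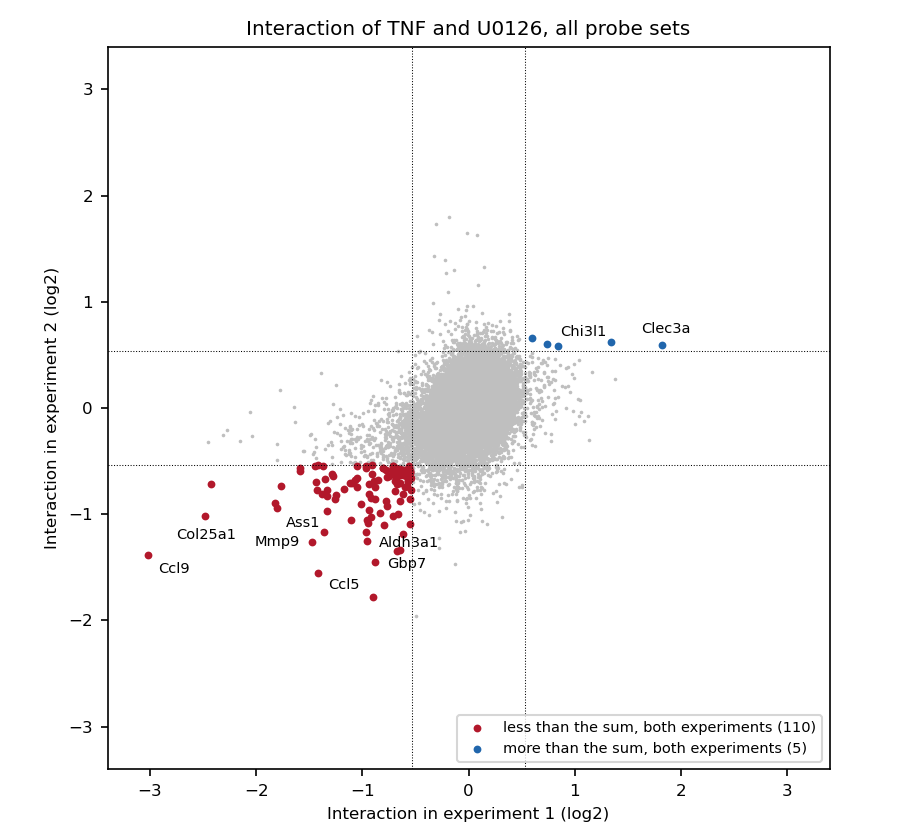
Interaction on the log2 scale in experiment 1 (horizontal axis) and experiment 2 (vertical axis) for 31042 probe sets, each a point, with the 1.45-fold threshold as dotted lines. The 110 red probe sets in the lower left corner lie below the sum of the single effects in both experiments, the 5 blue ones in the upper right lie above it in both, and no probe set lies past the threshold in the corners of opposite direction.

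Across all probe sets the interactions of the experiments correlated with a Pearson r of 0.369, which is a description over genes that share their arrays. Their standard deviations were 0.216 and 0.222. A further 487 probe sets passed the threshold below the sum in experiment 1 and not in experiment 2, and 332 in experiment 2 and not in experiment 1. Above the sum these counts were 134 and 276. Just inside the threshold lay Arrdc4 with -0.5371 and -0.7711, Tlr2 with -1.4153 and -0.5378, Zfp207 with -0.9104 and -0.5412 and Ifnar1 with -0.5417 and -0.662. Just outside it lay Pabpn1 with -0.6216 and -0.5357, a probe set without a gene name with -0.6486 and -0.5352, Gas7 with -0.6934 and -0.5313 and Car9 with -1.2849 and -0.528. The genes on either side of the line thus differ by little.

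Most of the 110 were genes that TNFα raised when given alone, and limma called 75 of them higher (3.43% of all probe sets were). TNFα alone was at least 1.45-fold over DMSO in both experiments for 77 of them, or 70%, and it was at least 1.45-fold lower for 0. The other 33 passed that threshold in neither direction. Over all probe sets, TNFα alone gave 516 higher and 115 lower, which are 1.66% and 0.37% of those tested, and the 77 are 14.9% of those higher. U0126 alone passed the threshold in neither direction for 101 of the 110, was higher for 7 (0.18% of all probe sets) and lower for 2 (0.11%). With both agents, 102 of the 110 had a lower level than with TNFα in both experiments, by 1.45-fold in 54. In the presence of U0126, 26 were still at least 1.45-fold higher with TNFα in both experiments (0.905% of all), 4 were lower by it (0.303%), and 80 were under the threshold in at least 1 of them. Over the 77, the median share of the log2 response to TNFα that was left with U0126 was 38%. That less than the full response was left follows from how the 77 were selected. The threshold on the interaction also favours a level below that with TNFα, so these values describe the selected probe sets only.

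Since the TNFα and DMSO arrays enter both the response to TNFα alone and the interaction, a high TNFα array pushes a probe set towards a larger response and a lower interaction at once, and this sorting is a description. Among all 516 probe sets higher with TNFα alone, the interaction was below 0 in both experiments in 451 and above 0 in both in 8. Among the 115 lower with TNFα alone, it was above 0 in both in 73 and below 0 in both in 7. On a linear scale, where intensities and not folds are added, all 110 were also below the sum in both experiments. Of the 5 above the sum, 4 were also above it on the linear scale and Chi3l1 was below it.

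**Figure D2:**
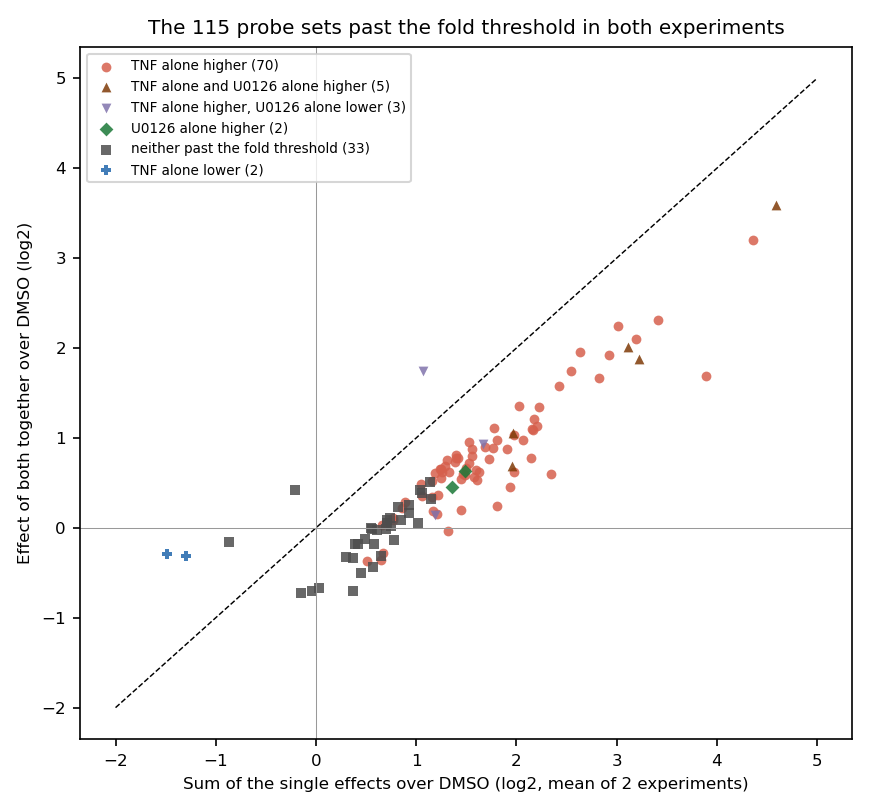
Effect of U0126 and TNFα together over DMSO (vertical axis, log2, mean of 2 experiments) against the sum of the single effects (horizontal axis, log2) for the 115 probe sets past the threshold, marked by what each agent did alone. Points on the dashed line would have a joint effect equal to the sum. The 110 points under the line include 77 with a higher level with TNFα alone, and the grey squares, which passed the threshold with neither agent alone, lie around a joint effect of 0.

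Of 27 measured metalloproteinases and their inhibitors, 2 had a joint effect less than the sum by the fold threshold and 0 more, beside 55 of 14217 genes less (0.387%) and 4 more (0.0281%) when each gene is given by 1 probe set. At an unadjusted p under 0.05 there were 5 below the sum and 0 above, beside 4.58% and 3.88% of genes. The list's median interaction was -0.12 and that of all genes -0.01. The 2 past the fold threshold were Mmp9 and Mmp13, and the 5 at that p were Mmp9, Mmp12, Adamts5, Timp1 and Adam15. Mmp9 is gelatinase B, which digests denatured collagen. Its intensity in experiments 1 and 2 was 91.3 and 124 (DMSO), 90.0 and 75.6 (U0126), 265 and 444 (TNFα) and 94.2 and 113 (both agents). The TNFα arrays stand above all others, and the arrays with both agents are back at the DMSO level. The interaction was -1.47 and -1.26, with a mean of -1.37 and a standard error of 0.29. The levels of Mmp9 are low on these arrays, and its second, dimmer probe set gave -0.92 and -0.49, which misses the threshold in experiment 2.

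Mmp13, the collagenase that cleaves type II collagen, was lower with U0126 alone. Its intensity was 1176 and 1911 (DMSO), 378 and 666 (U0126), 17893 and 5810 (TNFα) and 2286 and 1186 (both agents). The U0126 arrays are the lowest of each experiment, the sum of the single effects was 1.19, and the joint effect was 0.14. The interaction was -1.33 and -0.77. Its standard error was 0.80, and TNFα alone gave 15.2-fold in experiment 1 and 3.04-fold in experiment 2. Mmp3, stromelysin 1, had an intensity of 1088 and 2498 (DMSO), 390 and 894 (U0126), 25624 and 11192 (TNFα) and 8718 and 3632 (both agents). The ratio of the arrays with U0126 to those without was similar with and without TNFα. Its interaction was -0.07 and -0.14, with a standard error of 0.93, and the 95% interval from -2.31 to 2.09 is wide. TNFα alone gave 23.5-fold and 4.48-fold, and this difference between the experiments enters the error, although the 2 interactions lie close together. The sum of the single effects was 1.88 and the joint effect 1.77. On the linear scale the interaction of Mmp3 was -16207 and -5956 intensity units, so it was near additive for folds and not for amounts.

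Mmp12, macrophage elastase, had an intensity of 161 and 326 (DMSO), 145 and 163 (U0126), 814 and 551 (TNFα) and 209 and 219 (both agents). Its interaction was -1.80 in experiment 1 and -0.34 in experiment 2, so it missed the threshold in experiment 2. Adamts5, an aggrecanase, has 2 results. A dimmer probe set of the gene passed the threshold at -1.07 and -0.68, while the brighter probe set that stands for the gene gave -1.07 and -0.47. Timp1, an inhibitor of these enzymes, was raised by TNFα alone from 5162 and 6165 to 13149 and 8539, and had 5381 and 5381 with both agents (interaction -1.04 and -0.29). The other metalloproteinases lay nearer to 0, and 16 of the 27 were below the sum in both experiments and 3 above it, beside 35% and 29.3% of all genes. TNFα alone raised 6 of the 27 by limma, beside 3.43% of probe sets, and that response shares its arrays with the interaction.

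The genes Mmp13, Mmp12 and Mmp3 lie on rat chromosome 8 and each has the letters TGANTCA, the core of an AP-1 site, close to its start site. The windows are shown because these genes share that feature and the response to TNFα while their interactions range from -1.07 to -0.11. Each holds 120 bases before and 30 after the start site of the RefSeq annotation on GRCr8, plus strand, 5′ to 3′, at chr8:12782709-12782858, chr8:12866532-12866681 and chr8:12925161-12925310, with the AP-1 letters in capitals.
Mmp13: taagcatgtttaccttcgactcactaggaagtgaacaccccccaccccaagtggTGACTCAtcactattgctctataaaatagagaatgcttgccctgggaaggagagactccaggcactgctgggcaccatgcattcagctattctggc
Mmp12: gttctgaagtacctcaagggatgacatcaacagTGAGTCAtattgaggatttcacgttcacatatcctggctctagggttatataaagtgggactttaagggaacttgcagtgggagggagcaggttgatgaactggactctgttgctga
Mmp3: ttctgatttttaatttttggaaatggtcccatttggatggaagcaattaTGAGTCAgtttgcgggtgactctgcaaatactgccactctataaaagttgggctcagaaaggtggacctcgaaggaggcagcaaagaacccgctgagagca
In this order the first base of those letters lies 66, 87 and 71 bases before the start site. Each gene has 1 match in the 300 bases from 250 before to 50 after the start.

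Plasminogen activators turn plasminogen into plasmin, which cleaves matrix and activates metalloproteinases. Of 8 measured genes of this system 1 was less than the sum by the fold threshold and 0 more, and the median was -0.32. It was Plat, tissue plasminogen activator, with 1092 and 1026 (DMSO), 1030 and 959 (U0126), 4638 and 2502 (TNFα) and 1789 and 1519 (both agents). U0126 alone gave 0.94-fold and 0.93-fold of DMSO, and the interaction was -1.29 and -0.62. The protease inhibitors A2m (-1.48 and -0.24) and Serpine2 (-0.64 and -0.46) missed the threshold in experiment 2. Slpi, a secreted leukocyte protease inhibitor, was also among the 110, at -0.69 and -0.78 with a standard error of 0.82. TNFα alone raised Slpi by 11.1-fold and 2.72-fold.

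Chemokines, which draw leukocytes into the joint, were split. Of 30 measured, 3 were less than the sum by the fold threshold, Ccl9, Ccl5 and Cxcl13, and 0 were more. At an unadjusted p under 0.05, 4 were less and 2 more, beside 4.58% and 3.88% of genes, and the median was -0.12. Ccl5 binds receptors on T cells and monocytes. Its intensity was 337 and 465 (DMSO), 337 and 379 (U0126), 1166 and 2442 (TNFα) and 435 and 681 (both agents). TNFα raised it by 2.09 on the log2 scale (limma adjusted p = 0.00252), and with both agents it was lower than with TNFα by limma (log2 difference -1.63, adjusted p = 0.038), as were 0.122% of probe sets. The interaction was -1.42 and -1.55, with a standard error of 0.26. Ccl9 had 59.3 and 54.1 (DMSO), 86.7 and 61.8 (U0126), 821 and 515 (TNFα) and 148 and 225 (both agents). It lies furthest below the sum of the 110, at -3.02 and -1.38, and it still had 1.71-fold and 3.64-fold with TNFα in the presence of U0126.

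Cxcl13, which attracts B cells, had 303 and 1427 (DMSO), 524 and 2257 (U0126), 6785 and 13536 (TNFα) and 6045 and 10313 (both agents). U0126 alone gave a level above DMSO and the arrays with both agents stayed near the TNFα arrays, and the interaction was -0.96 and -1.05. Ccl2, which attracts monocytes, had an interaction of -0.46 and 0.54. Its TNFα response was 50.36-fold and 20.54-fold alone and 36.73-fold and 29.83-fold with U0126, so the experiments disagree in sign. Cxcl10, a target of interferon and NFκB, was above the sum in both experiments, at 0.75 and 0.47, and missed the threshold in experiment 2. Cxcl6 and Ccl20 were below the sum in experiment 1 at -1.77 and -1.39 and above it in experiment 2 at 0.17 and 0.33.

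Of 21 measured cytokines, 1 passed the fold threshold. Il34 is a ligand of the receptor of Csf1, on which macrophages and osteoclasts depend. It had 214 and 333 (DMSO), 230 and 272 (U0126), 1052 and 1209 (TNFα) and 560 and 530 (both agents), and its interaction was -1.01 and -0.90 with a standard error of 0.21. Csf1, the other ligand of that receptor, had 2906 and 3517 (DMSO), 2539 and 2718 (U0126), 8120 and 7183 (TNFα) and 6403 and 6189 (both agents). Its interaction was -0.15 and 0.16, with a mean of 0.00 and a 95% interval from -0.36 to 0.37. The mean of Il34 was -0.95. The difference between the ligands was not tested. Ltb (-1.13 and -0.39) and Il33 (-0.50 and -0.48) missed the threshold in at least 1 experiment. The median of the list was 0.06.

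Genes of the NFκB pathway lay mostly below the sum, by less than the fold threshold. Of 21 measured subunits, inhibitors and targets, 0 passed the fold threshold in either direction and 16 were below the sum in both experiments, with 1 above it in both, beside 35% and 29.3% of all genes. The median was -0.24. At an unadjusted p under 0.05 there were 6 below and 0 above, beside 4.58% and 3.88% of genes. TNFα alone raised 17 of the 21 by limma, beside 3.43% of probe sets, so this list shares its arrays with that response. Among all 516 probe sets higher with TNFα alone, 451 were below 0 in both experiments. Nfkb2, the p100 subunit, had 900 and 943 (DMSO), 873 and 900 (U0126), 2392 and 2553 (TNFα) and 2208 and 2386 (both agents). The arrays with U0126 are close to those without it at each level, and the interaction was -0.07 and -0.03 with a standard error of 0.08. Tnfaip3, the enzyme A20 that ends NFκB signalling, had 586 and 728 (DMSO), 552 and 679 (U0126), 3842 and 3930 (TNFα) and 2512 and 2587 (both agents). Its interaction of -0.53 and -0.50 lies just short of the threshold, and 80.0% of its log2 response to TNFα was left with U0126. Birc3, an inhibitor of apoptosis, was similar at -0.63 and -0.41. Bcl3, a nuclear partner of NFκB subunits, gave -0.71 and -0.31 with its brightest probe set and passed the threshold, at -1.05 and -0.55, with another.

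Of 32 measured interferon-stimulated and MHC class I genes, 1 passed the fold threshold and the median was -0.11. It was Gbp7, a guanylate-binding protein of cell-autonomous immunity, with 101 and 233 (DMSO), 90.2 and 403 (U0126), 2471 and 2607 (TNFα) and 1194 and 1655 (both agents). Both arrays with the combination lie below the TNFα arrays, the interaction was -0.88 and -1.45, and 71.2% of the log2 response was left. Psmb9, a subunit of the immunoproteasome, gave -0.50 and -0.63. Of 12 complement genes 0 passed, and C4bpa, a subunit of C4b-binding protein, came nearest at -0.90 and -0.49.

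Ass1, argininosuccinate synthase, which remakes arginine for nitric oxide synthesis, had 175 and 215 (DMSO), 202 and 198 (U0126), 885 and 791 (TNFα) and 294 and 379 (both agents). U0126 alone made little difference, and TNFα gave 5.06-fold and 3.68-fold alone and 1.46-fold and 1.92-fold with U0126. The interaction was -1.80 and -0.94. Hpgd, which inactivates prostaglandins, gave -0.66 and -1.0 with its brightest probe set, and -0.14 and -0.56 with the other, which missed the threshold. Ptges, which makes prostaglandin E2, gave -2.31 and -0.26, so that in this list of 18 genes 2 were less than the sum by the threshold and 0 more. Egln3, an oxygen sensor that marks HIF for degradation, had 169 and 119 (DMSO), 143 and 121 (U0126), 671 and 366 (TNFα) and 306 and 230 (both agents), with an interaction of -0.89 and -0.69. It was the only 1 of 12 measured genes of glycolysis and the hypoxia response past the threshold. The median of these genes was -0.28, and 11 of the 12 were below the sum in both experiments, beside 35% of all genes. TNFα alone raised 4 of the 12 by limma, beside 3.43% of probe sets, so this list also shares its arrays with that response.

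Plscr1, a phospholipid scramblase, had 826 and 426 (DMSO), 655 and 359 (U0126), 5272 and 2185 (TNFα) and 2180 and 1050 (both agents), and the interaction was -0.94 and -0.81 with a standard error of 0.14. Cpxm1 (a carboxypeptidase-like protein) gave -1.25 and -0.82, Tnn (tenascin N) -0.92 and -0.85, and Slc16a7 (a monocarboxylate transporter) -0.78 and -0.88. Col25a1, a membrane collagen, had 256 and 113 (DMSO), 228 and 150 (U0126), 2361 and 270 (TNFα) and 379 and 176 (both agents). Its response to TNFα was 9.23-fold and 2.39-fold, and its interaction of -1.75 had a standard error of 0.74. Orm1, the acute phase protein orosomucoid, had 240 and 290 (DMSO), 173 and 176 (U0126), 5400 and 625 (TNFα) and 1551 and 214 (both agents). Its standard error of 1.20 is the widest of the 110, and leaving out the DMSO or the TNFα array of experiment 1 moved its interaction from -1.08 to 0.05. Pde4b, a cyclic AMP phosphodiesterase, gave -1.35 and -0.67, and -1.44 and -0.36 with its other probe set, which missed the threshold in experiment 2. Dusp1, a phosphatase of the MAP kinases, passed the threshold with one of its probe sets, at -0.69 and -0.57, and gave -0.31 and 0.29 with the other.

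**Figure D3:**
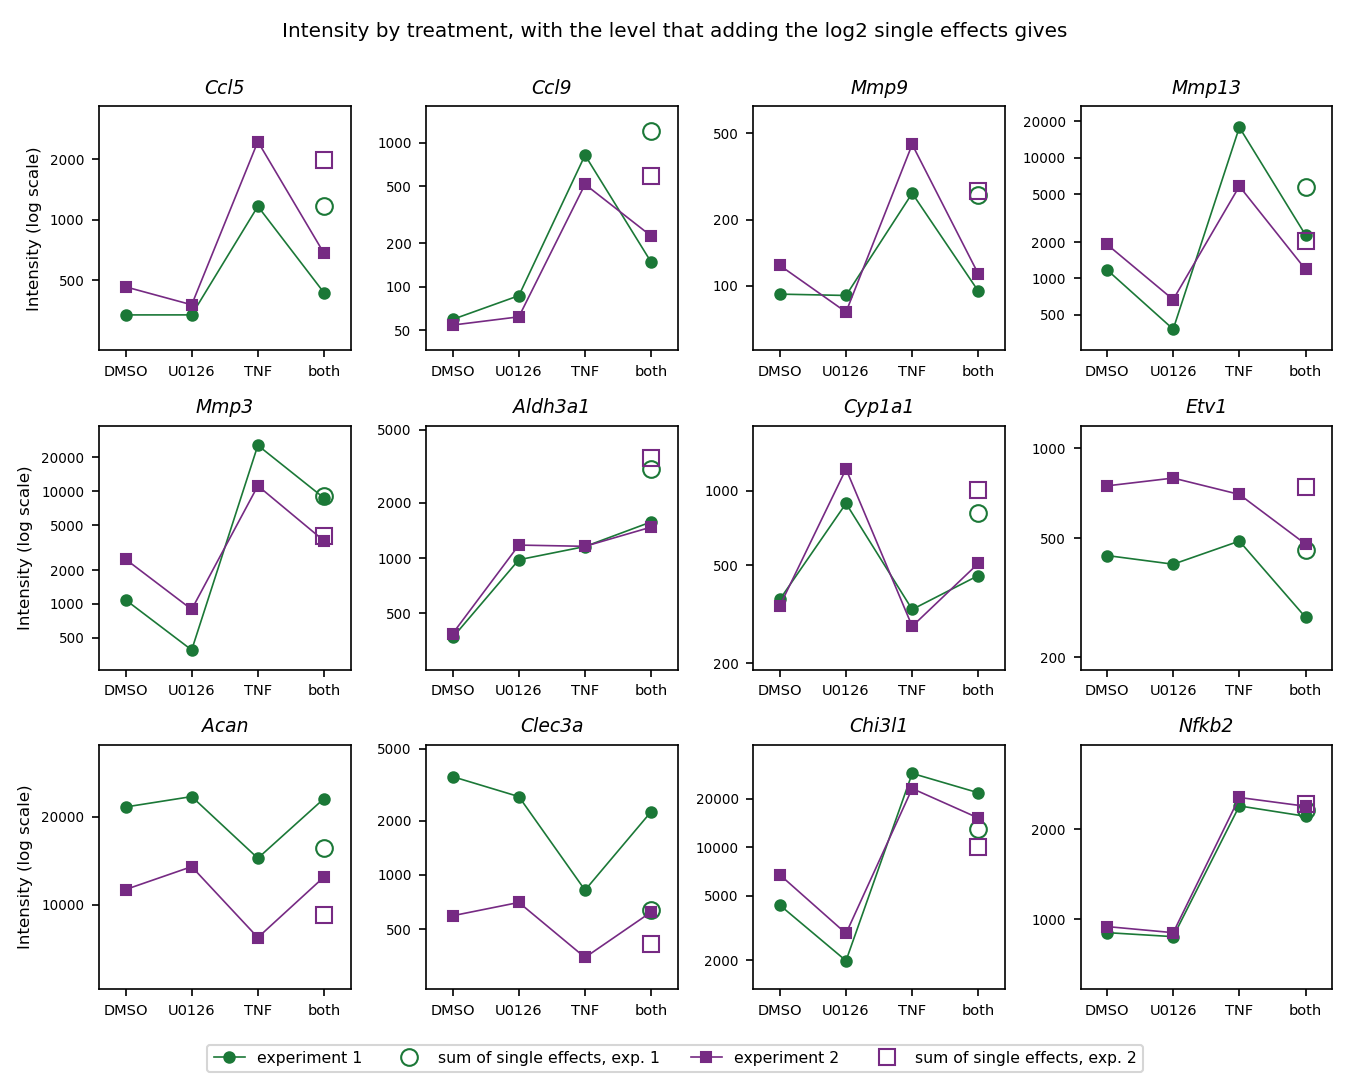
Intensity (log scale) of 12 genes with each treatment in experiment 1 (circles) and experiment 2 (squares). Open symbols mark the level with both agents that the sum of the log2 single effects gives. The filled symbol lies below the open one in both experiments in Ccl5, Ccl9, Mmp9, Mmp13, Aldh3a1, Cyp1a1 and Etv1, close to it in Mmp3 and Nfkb2, and above it in Acan, Clec3a and Chi3l1.

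The aryl hydrocarbon receptor and NRF2 turn on enzymes of xenobiotic metabolism. Of 18 measured targets, 2 passed the threshold below the sum, Aldh3a1 and Cyp1a1, and 0 above. The median was -0.02, with 8 of the 18 below the sum in both experiments and 4 above, beside 35% and 29.3% of all genes. At an unadjusted p under 0.05 there were 3 below and 0 above, beside 4.58% and 3.88% of genes. Aldh3a1, an aldehyde dehydrogenase, had 370 and 388 (DMSO), 979 and 1177 (U0126), 1156 and 1159 (TNFα) and 1574 and 1475 (both agents). Each agent alone raised it about equally, by 1.61 for TNFα (limma adjusted p = 0.000618) and 1.5 for U0126 (limma adjusted p = 0.00536, a rise called in 0.058% of probe sets), both on the log2 scale. The sum is 3.11 and the joint effect was 2.01, which gives an interaction of -0.96 and -1.25 with a standard error of 0.13 and a limma unadjusted p of 6.42e-05. Here the arrays with both agents are the highest, and the shortfall is against the sum only.

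Cyp1a1, a cytochrome P450 and a standard marker of the aryl hydrocarbon receptor, had 363 and 343 (DMSO), 889 and 1225 (U0126), 331 and 283 (TNFα) and 454 and 509 (both agents). U0126 raised it (limma adjusted p = 0.0428). TNFα alone gave 0.91-fold and 0.83-fold, and in the presence of U0126 it lowered Cyp1a1 to 0.51-fold and 0.42-fold of the U0126 arrays (limma adjusted p = 0.0244). The interaction was -0.83 and -0.99. Pir, pirin, a target of NRF2 that U0126 also raised, had 363 and 404 (DMSO), 823 and 1049 (U0126), 516 and 611 (TNFα) and 1003 and 1301 (both agents). Its joint effect of 1.58 lies below the sum of 1.83, with an interaction of -0.22 and -0.28 (limma unadjusted p = 0.0483). On the linear scale Pir was above the sum in both experiments, by 27.1 and 45.9 intensity units. Abca1, a cholesterol exporter, was the other named gene for which each agent alone passed the threshold upwards, besides Aldh3a1 and Cxcl13, and it gave -1.12 and -0.71. Its 3 other probe sets were below the sum in both experiments, with means of -0.78, -0.73 and -0.35, and missed the threshold.

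For 31 of the 110 neither agent alone passed 1.45-fold in both experiments. Of these, 16 carry 1 gene symbol and their median intensity over the arrays was 274, beside 369 for all probe sets. In 18 of the 31 each agent alone gave a level above DMSO in both experiments, in 17 of these 18 the level with both agents was below that with TNFα in both, and in 13 it was also below that with U0126. Rfx3, a transcription factor of ciliated cells, had 142 and 182 (DMSO), 194 and 243 (U0126), 236 and 259 (TNFα) and 201 and 219 (both agents). All single-agent arrays are above DMSO, and the combination falls between DMSO and TNFα. Lysmd4 had 76.0 and 89.2 (DMSO), 86.6 and 100 (U0126), 100 and 114 (TNFα) and 77.7 and 86.8 (both agents), so that the joint effect was 0.00 against a sum of 0.55. Its standard error was 0.08 and its levels are low. The 3 other probe sets of Lysmd4 are brighter and gave -0.04, 0.08 and 0.14, and the other, dimmer probe set of Rfx3 gave 0.26 and 0.16, above the sum, so these values hold for single probe sets.

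In 12 of the 31 the level with both agents was below DMSO in both experiments. Etv1 is an ETS factor whose transcript is known to depend on ERK signalling. It had 438 and 750 (DMSO), 410 and 796 (U0126), 490 and 702 (TNFα) and 272 and 479 (both agents). TNFα alone gave 1.12-fold and 0.94-fold and U0126 alone 0.94-fold and 1.06-fold, and the arrays with both are the lowest of each experiment. The interaction was -0.75 and -0.64 with a standard error of 0.15, and TNFα lowered it in the presence of U0126 by 0.66 on the log2 scale (limma adjusted p = 0.0386). The 4 other probe sets of Etv1 gave interactions of -0.57 to -0.47. Olfm1, olfactomedin 1, also had its lowest arrays with both agents, with 165 and 369 (DMSO), 177 and 378 (U0126), 189 and 276 (TNFα) and 122 and 189 (both agents) (interaction -0.72 and -0.58, and -0.64 and -0.22 with its brighter probe set). Rasd1, a small GTPase, had 808 and 1988 (DMSO), 843 and 2553 (U0126), 1402 and 1427 (TNFα) and 538 and 1130 (both agents). Its TNFα arrays lie on opposite sides of DMSO in the experiments while the arrays with both are the lowest of each.

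Joint effects more than the sum were few at the threshold, and 4 of the 5 probe sets carry a gene name. Clec3a, a C-type lectin made in cartilage, had 3509 and 594 (DMSO), 2719 and 704 (U0126), 823 and 349 (TNFα) and 2245 and 623 (both agents). TNFα lowered it alone (log2 fold change -1.43, limma adjusted p = 0.03) and gave 0.83-fold and 0.89-fold in the presence of U0126. The interaction was 1.82 and 0.59. Rtn4r, the Nogo receptor, had 445 and 441 (DMSO), 365 and 368 (U0126), 249 and 346 (TNFα) and 365 and 432 (both agents), and an interaction of 0.84 and 0.58. Its 2 other probe sets, which are dimmer, gave 0.13 and -0.12 and 0.24 and 0.03, so the interaction was seen with 1 of 3. Pkp1, plakophilin 1 of desmosomes, had 630 and 600 (DMSO), 652 and 449 (U0126), 696 and 522 (TNFα) and 1091 and 617 (both agents). It is highest with both agents in both experiments, by little in experiment 2.

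Chi3l1, the chitinase-like cartilage glycoprotein that is used as a marker of joint inflammation, differed in sign between the scales. It had 4389 and 6762 (DMSO), 1990 and 2934 (U0126), 28632 and 23080 (TNFα) and 21722 and 15166 (both agents). The U0126 arrays are the lowest, and TNFα gave 10.9-fold and 5.17-fold with U0126 against 6.52-fold and 3.41-fold without it. The log2 interaction was therefore 0.74 and 0.60, while in intensity units it was -4512 and -4086.

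Below the threshold, the cartilage matrix genes leaned to the positive side. Of 17 measured, 15 had an interaction above 0 in both experiments and 0 below 0 in both, beside 29.3% and 35% of all genes. The median was 0.24, with 0.28 and 0.27 in the experiments. By the fold threshold 1 was more than the sum, Clec3a. At an unadjusted p under 0.05 there were 8 above and 0 below, beside 3.88% and 4.58% of genes. TNFα alone lowered 10 of the 17 by limma, beside 1.76% of probe sets, so this list shares its arrays with that response. Acan had 21559 and 11281 (DMSO), 23396 and 13501 (U0126), 14422 and 7741 (TNFα) and 23031 and 12456 (both agents). The arrays with both agents are above DMSO, and only the TNFα arrays are low within each experiment. Its interaction was 0.56 and 0.43, past the threshold in experiment 1 only, with a standard error of 0.09, a 95% interval from 0.28 to 0.71 and a limma unadjusted p of 0.00105. Its second probe set gave 0.70 and 0.46.

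Hapln1, the link protein that fixes aggrecan to hyaluronan, had 21163 and 7806 (DMSO), 20942 and 9845 (U0126), 13428 and 5784 (TNFα) and 19227 and 8921 (both agents), and an interaction of 0.53 and 0.29. Cnmd (chondromodulin, an inhibitor of vessel growth) gave 0.72 and 0.43 and Matn1 (matrilin 1) gave 0.44 and 0.29. Col2a1 had 32076 and 26744 (DMSO), 31287 and 27619 (U0126), 29960 and 24283 (TNFα) and 30975 and 26725 (both agents). These intensities are near the top of the scale of the arrays, and the interaction was 0.08 and 0.09. The dimmer probe sets of Col2a1 gave -0.43 and 0.35, and -0.01 and 1.65 (mean 0.82, limma unadjusted p = 0.0431), so its probe sets differ. Sox9, the master factor of chondrocytes, was not analysed here, since no probe set is named for it in the annotation used. The 12 macrophage and leukocyte markers had a median of -0.03, with 3 below the sum in both experiments and 2 above, beside 35% and 29.3% of all genes. The 1 at an unadjusted p under 0.05 was Cd68, at -0.99 and -0.36. The part of these markers in the results above was not tested.

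**Figure D4:**
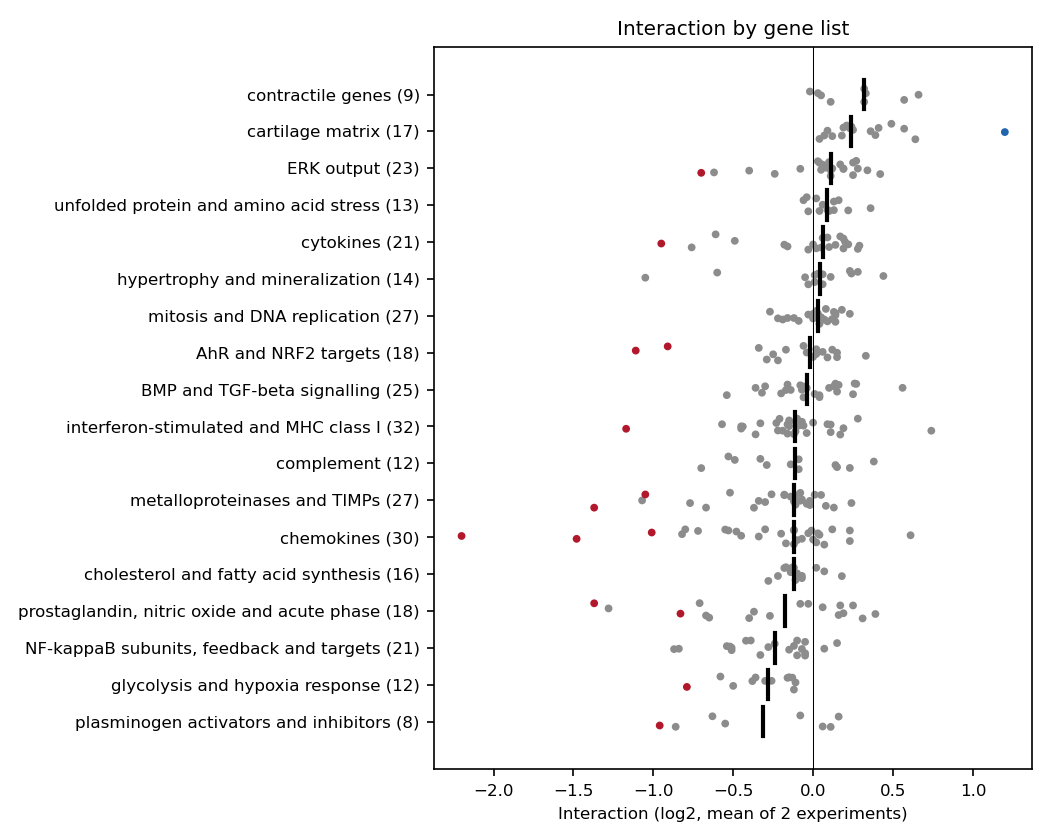
Interaction (horizontal axis, log2, mean of 2 experiments) of the genes of each list, 1 point a gene, with the number of measured genes in brackets and the median as a black bar. Red genes passed the fold threshold below the sum in both experiments and blue ones above it. The cartilage matrix median lies at 0.24 and the plasminogen median at -0.32, while most lists lie near the median of all genes, -0.01.

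Genes listed as output of ERK signalling lay mostly just above the sum. Of 23 measured, 15 were above the sum in both experiments and 4 below, beside 29.3% and 35% of all genes, with a median of 0.11. By the threshold, Etv1 was below and 0 were above. At an unadjusted p under 0.05 in limma there were 1 below and 2 above, beside 4.58% and 3.88% of genes. Egr1, an immediate early transcription factor, had 3568 and 4642 (DMSO), 1263 and 1659 (U0126), 3923 and 3618 (TNFα) and 1763 and 1491 (both agents). The U0126 arrays are low with and without TNFα, and the interaction was 0.34 and 0.21 with a standard error of 0.23. Spry4, a feedback inhibitor of the pathway, gave 0.25 and 0.25.

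Contractile genes had a median of 0.32 over 9 genes, and 0 passed the threshold. In both experiments 6 were above the sum and 0 below, beside 29.3% and 35% of all genes. Acta2, smooth muscle actin, had 4205 and 3380 (DMSO), 3762 and 3112 (U0126), 2869 and 3860 (TNFα) and 4910 and 4644 (both agents). The arrays with both agents are the highest of each experiment. Tagln (transgelin) gave 0.74 and 0.40 and Cnn1 (calponin) 0.22 and 0.43.

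The remaining lists held 0 genes past the threshold. They were BMP and TGF-beta signalling (25 genes, median -0.04), hypertrophy and mineralization (14 genes, 0.04), mitosis and DNA replication (27 genes, 0.03), cholesterol and fatty acid synthesis (16 genes, -0.12) and the unfolded protein and amino acid stress response (13 genes, 0.09). In the mitosis list the experiments differed, with medians of 0.22 and -0.13, and Cenpf, Bub1 and Tyms were named with means of -0.27, -0.22 and -0.19. In the hypertrophy list, Ihh (Indian hedgehog) gave 0.44 and 0.45 and Vegfa (vascular endothelial growth factor) -0.83 and -0.36.

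Promoters in the RefSeq table on GRCr8, from 250 bases before to 50 after the start site, were found for 56 of the 72 named genes below the sum and searched on both strands. The AP-1 letters TGANTCA were in 10 of the 56 (17.9%), beside 5.43% of 11700 promoters of genes on the array and 9.28% of 237 genes past the threshold upwards with TNFα alone that were not below the sum. The 10 were Mmp13, Orm1, Map3k8, Ifnar1, Upp1, Slfn4, Rfx3, Rnf125, Vwa1 and Cfap100. Unlike the 237, the 56 include genes that TNFα alone did not raise past the threshold. Among the 10 these are Rfx3, Rnf125, Vwa1 and Cfap100, so the 56 and the 237 differ in more than the interaction. Ifnar1, Slfn4 and Rfx3 each passed the threshold with only 1 of their probe sets. The means of the others were -0.33 to 0.02 for Ifnar1, 0.17 for Slfn4 and 0.21 for Rfx3. The remaining genes have no other probe set, and Orm1 had a standard error of 1.20. The NFκB motif, searched with its consensus letters, was in 8.93% of the 56, 1.19% of the array's genes and 8.44% of the 237. The ETS letters AGGAAG were in 33.9%, 34.2% and 38.8%, the EGR letters GCGGGGGCG in 5.36%, 4.90% and 8.02%, the aryl hydrocarbon receptor letters TNGCGTG in 5.36%, 7.43% and 5.49%, and the NRF2 letters TGACNNNGC in 10.7%, 14.4% and 14.8%. The shares are descriptions of letters in a short window, and the motifs can overlap.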

How the data were processed

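Expression was measured on 8 Affymetrix RAT230_2.0 arrays, with 1 array for each of 4 treatments in each of 2 experiments. Groups and replicate numbers came from the labels. The deposited values are 1 linear intensity per probe set, made with RMA per the submitters' processing notes. The methods also name a division by the 50th percentile and by DMSO, which the values do not show. Each array was centred on its median and log2 values were taken. No depth exists for arrays.

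The log2 values of all arrays were fitted in limma 3.58.1 (R 4.3.3), with terms for treatment and experiment (residual degrees of freedom 3). Same-numbered arrays deviated together from their treatment means, with correlations of 0.728 to 0.829 over 6 pairs of treatments, and the methods set each array against DMSO of its own experiment, so the number was kept as a block. p values were adjusted by Benjamini-Hochberg over 31042 probe sets. The fold threshold was 1.45, as in the methods. A gene was given by its brightest probe set, named from the array's annotation of 2016 (20826 probe sets with 1 symbol, 436 with several, 9780 with none), with symbols updated through RefSeq for 20758.

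Named genes were the up to 15 furthest past the threshold in each direction above the array median, 11 measured genes of the study (Mmp9 and Mmp13 among them), and up to 3 of each list by smallest p. Others, such as Tlr2, Dusp1, Pde4b, Abca1, Slpi, Rfx3, Lysmd4, Olfm1, Rasd1, Cxcl10, Ptges and Upp1, were named after their values were seen. The members and lists were chosen with earlier results of these data known. Fits were tested on simulated data. Alternatives were quantile normalization, no centring, a filter on low probe sets, no block, other priors, other thresholds, each experiment alone, genes for probe sets and leaving out each array. Python 3.11.15, pandas 2.3.3 and matplotlib 3.10.9 were used for tables and plots.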

Additional observations from a re-analysis of the deposited data

Results flagged for a closer look

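Of the 74 genes named by rule, 6 had a response to TNFα on one side of 0 in both experiments without U0126. With U0126 their response lay on the other side in both, in places by less than the printed rounding. Lysmd4, Vwa1 and Zfp207, named outside that rule, also had opposite directions in their probe sets below the sum and are not counted. The difference of the responses did not pass the adjusted test in any of these genes, and the opposite direction itself was not tested. Rtn4r (interaction 0.71 on the log2 scale) had TNFα responses of -0.84 and -0.35 alone and 0.00 and 0.23 with U0126. This was seen with 1 of its 3 probe sets. The other 2 had interactions of 0.00 and 0.14, and TNFα gave 0.91-fold and 0.75-fold, and 0.83-fold and 0.85-fold, with U0126. A2m (-0.86) had 1.44 and 0.24 alone and -0.04 and 0.00 with U0126. Cfd, complement factor D (-0.49), had 0.43 and 0.18 alone and -0.15 and -0.23 with U0126. Egr3, an early growth response factor (0.34), had -0.19 and -0.21 alone and 0.09 and 0.20 with U0126. Ifit3, an interferon-induced gene (0.28), and Bglap, osteocalcin (0.28), lay at low intensity, with responses of -0.14 and -0.34 and of -0.15 and -0.28 alone, and of 0.02 and 0.04 and of 0.10 and 0.04 with U0126.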

How the results depend on the processing

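limma called 0 probe sets for the interaction under each alternative, except 2 without the TNFα array of experiment 2 (range over leaving out each array 0 to 2). At an unadjusted p under 0.05 the count below the sum was 1492 and that above 1344. They were 257 and 413 with no replicate block, 651 and 551 with genes in place of probe sets, and 1078 and 455 without the lowest 40 percent of probe sets, and they ranged from 663 to 2131 and from 466 to 1915 over leaving out each array. The lowest of each range came without the U0126 array of experiment 2, and without the combined array of experiment 2 they were 902 and 772. The fold counts of 110 below and 5 above the sum became 346 and 81 at 1.3-fold, 6 and 0 at 2-fold, 327 and 51 for the mean of the experiments, 597 and 139 for experiment 1 alone, 442 and 281 for experiment 2 alone, 71 and 5 without the lowest 40 percent, and 55 and 4 with genes. The stricter and looser rules change the counts by construction, as do fewer features, and the cause of the other shifts was not tested. The counts were 101 and 6 with quantile normalization and 124 and 5 with no centring.

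In this balanced design the estimates are the same with and without the block, so its removal changes only the errors. Signs of named genes turned in Csf1 with no centring (-0.01), Nfkb2 with quantile normalization (0.02), and other probe sets of Col2a1 (-0.04), Csf1 (-0.06) and Igtp (0.02). Leaving out single arrays turned 17 of 592 values, with ranges of Orm1 -2.21 to 0.05, Mmp3 -0.94 to 0.72, Csf1 -0.15 to 0.16, Ccl2 -0.43 to 0.51, Bub1 -0.47 to 0.04, Tyms -0.41 to 0.04 and Cenpf -0.61 to 0.07. The cause was not tested. Arrays have no depth, signal over background was not available as detection calls, and with 2 arrays a treatment the standard errors limit what single genes can show.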
